A study of Homo sapiens with 6 samples.

Results

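The platelet-derived growth factor (PDGF) genes are described here in the human embryonic stem cell line H9, an established line, after knockdown of the RNA of alpha satellite repeats. The members were the 6 table rows for the PDGF ligand genes PDGFC, PDGFA, PDGFB and PDGFD and the receptor genes PDGFRA and PDGFRB, out of 53719 gene rows. All 6 had enough counts to be tested. The family was taken up with the result of PDGFC known, the gene with the lowest p-value of all genes in the comparison of the groups, so its difference is given as a description without a test. The other 5 were chosen by family name, not by their own values.

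All 6 libraries came from H9 cells grown in RSeT, a commercial medium meant to hold human embryonic stem cells in a naive-like state. In the knockdown group (ALR Knockdown in the labels, 3 libraries, a to c) the gapmer given was directed at ALR, the RNA made from the alpha satellite repeats of human centromeres. In the control group (3 libraries, a to c) a control gapmer was given, so all 6 libraries share exposure to an oligonucleotide. Gapmers are antisense molecules whose central DNA stretch recruits RNase H to the paired RNA. Total RNA was collected 48 h later. The labels do not say whether the 3 libraries of a group came from separate cultures, so p-values measure only the spread between these libraries of 1 cell line. The table holds no row for ALR itself, and the extent of the knockdown was not analysed here.

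PDGF ligands are secreted dimers that bind receptor tyrosine kinases at the cell surface and start growth, survival and migration signals through RAS-MAPK, PI3K and phospholipase C. PDGF-A and PDGF-B are cut to their active form by furin-type convertases inside the cell. PDGF-C and PDGF-D leave the cell in a latent form with an extra CUB domain, which tissue plasminogen activator (PLAT) removes from PDGF-C, while urokinase (PLAU) and matriptase (ST14) can remove it from PDGF-D. The alpha receptor (PDGFRA) binds PDGF-A, PDGF-B and PDGF-C, and the beta receptor (PDGFRB) binds PDGF-B and PDGF-D. In the early embryo PDGFRA is known as a marker of primitive endoderm and of mesoderm.

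Total counts ran from 25087629 to 36576752 per library. Knockdown library a stood apart: it had counts in 29678 rows, against 25898 to 26788 in the other 5, and it alone had counts in 1862 rows. Values without it are given below where they bear on a member. The labelled cell type was checked against marker lists. The pluripotency list summed to 5703 to 6469 CPM (counts for each 1000000 of the scaled library) in knockdown and 5724 to 5890 in control libraries, and POU5F1, NANOG, LIN28A and TDGF1 all had counts in every library. SOX2, a core pluripotency factor, was listed at 0 in every library, and so were THY1, JUNB, DUSP1 and FOSB. A row at 0 is therefore given only as listed at 0. Of the 8 naive state markers, KLF17 had 1 to 10 counts per library, whereas DPPA3 had 467 to 710, TFCP2L1 680 to 1073 and KLF4 423 to 656. The naive list summed to 72.4 to 80.6 CPM in knockdown and 72.7 to 78.1 CPM in control libraries. The primed list summed to more, 2510 to 2737 CPM in knockdown and 2436 to 2481 CPM in control libraries. Whether the cells were in a naive-like state was not tested. Of 38 tested genes in 6 marker lists (pluripotent, naive, primed, primitive endoderm, mesoderm and fibroblast or feeder cells), 0 passed an adjusted p of 0.05 in edgeR's quasi-likelihood test, 9 had an unadjusted p under 0.05 (23.7%, against 14.3% of all genes tested), and DESeq2 called POU5F1 as higher and VIM as lower. With no low-count filter edgeR called the same pair, and without knockdown library c it called VIM as lower and POU5F1, LIN28A, COL4A1 and TAGLN as higher.

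PDGFC carries the largest difference of the family. The gene (ENSG00000145431.10) spans 210.941 kb at chr4:156760454-156971394 (GRCh38, minus strand) and has 9 annotated transcripts. Knockdown libraries a, b and c had 602, 623 and 609 counts, and control libraries a to c had 1707, 1722 and 2041. Scaled to the same depth, these were 21.2, 18.7 and 24.1 CPM in knockdown and 60.1, 55.5 and 56.2 CPM in control libraries. Every knockdown library lay far below every control library, and no library of either group stood out. The group means were 21.3 ± 2.72 and 57.2 ± 2.47 CPM (SD, n = 3), so the controls held 2.68 times the knockdown level. The log2 fold change (knockdown minus control) was -1.43 ± 0.09 (SE), with a 95% interval of -1.62 to -1.23. Counting error is small beside this gap: the exact Poisson 95% interval of the lowest count was 554.9 to 652.1. Without knockdown library a the change was -1.43, and over 13 other settings it ran from -1.54 to -1.34.

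**Figure D1:**
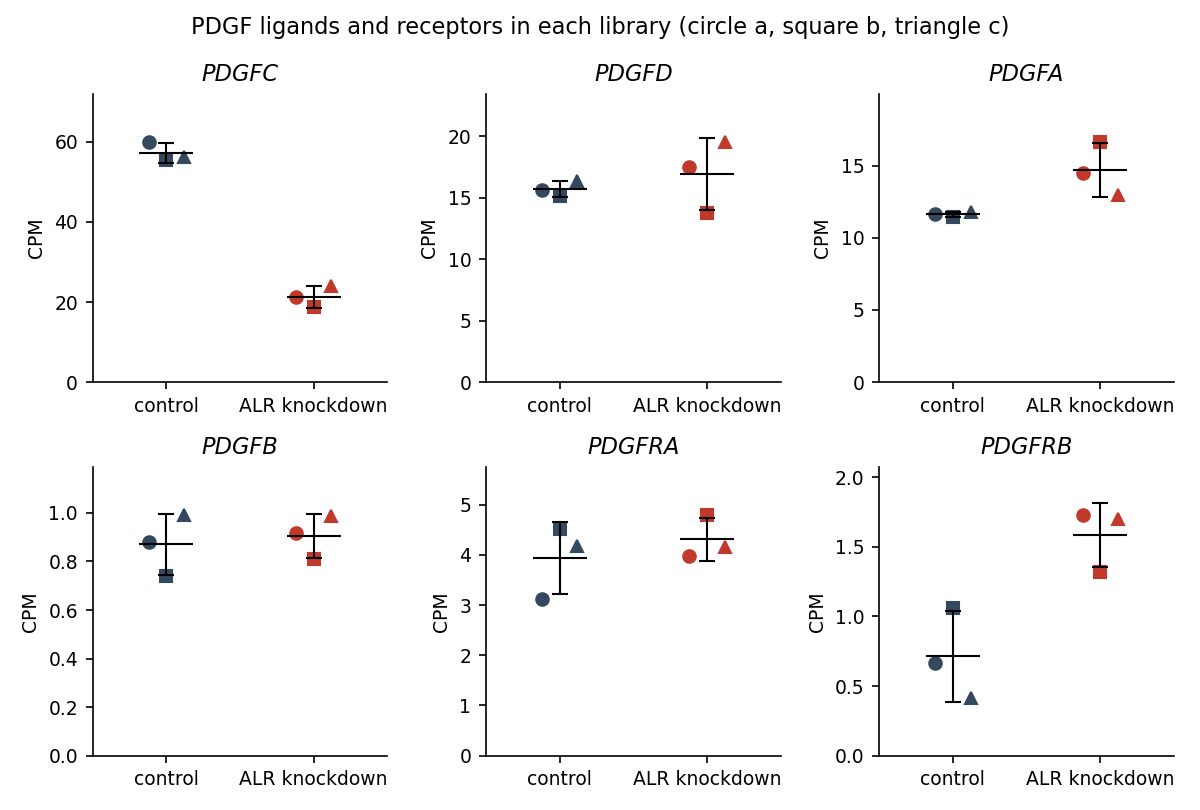
CPM (vertical axes, linear from 0, a separate scale per gene) of the 6 PDGF genes in 3 control and 3 ALR knockdown libraries. Points are libraries, long bars are group means and whiskers are 1 SD. The PDGFC groups are far apart (18.7 to 24.1 against 55.5 to 60.1 CPM), the PDGFA and PDGFRB groups do not overlap with knockdown above, and the other 3 genes overlap.

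Across all 19721 genes tested, 155 passed an adjusted p of 0.05 (0.786%), 128 of them lower in knockdown (0.649%) and 27 higher (0.137%). Among the 6 PDGF genes 1 passed, PDGFC, which is the value it was chosen for. The 3 knockdown libraries lay wholly above or wholly below the 3 controls in 3 of the 6 genes, PDGFC below and PDGFA and PDGFRB above. Of all tested genes 18.9% did so (9.37% with knockdown below and 9.55% above). PDGFC is in this count although it was chosen for its difference, so only the other members can be set beside that share. Of these, PDGFA and PDGFRB separated, and PDGFB, PDGFD and PDGFRA did not.

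**Figure D2:**
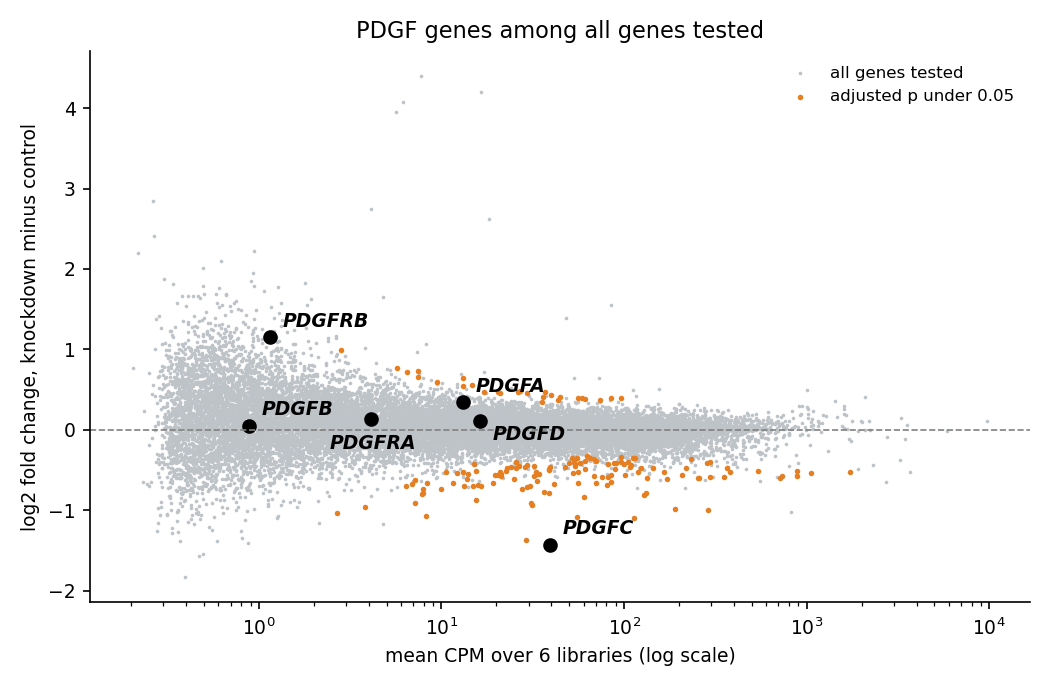
Log2 fold change (vertical axis, knockdown minus control) against mean CPM over the 6 libraries (horizontal log axis) for 19721 tested genes. Grey points are all genes, orange points the 155 past an adjusted p of 0.05, and black points the 6 PDGF genes. PDGFC lies at -1.43, and PDGFRB lies at 1.15 among genes of low counts, where the scatter is wide.

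PDGFD, the ligand built most like PDGF-C, was not distinguishable between the groups. PDGFD (ENSG00000170962.12, chr11:103907186-104164379, minus strand) had 17.4, 13.7 and 19.5 CPM in knockdown libraries a to c, and 15.6, 15.1 and 16.4 CPM in control libraries a to c. The knockdown libraries lay on both sides of the controls, and their spread was the wider. Its log2 fold change was 0.10 ± 0.12 (SE; edgeR adjusted p = 0.744), with a 95% interval of -0.16 to 0.36. The DNA-damage-inducible homologue DDI1 lies on the opposite strand within PDGFD and was listed at 0 in every library. The antisense gene AP003043.1 also overlaps PDGFD and has no row under this name.

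PDGFA (ENSG00000197461.13, chr7:497258-520296, minus strand), a ligand of the alpha receptor, was slightly higher in each knockdown library, but the difference did not pass the test. It had 14.5, 16.7 and 12.9 CPM in knockdown libraries a to c, and 11.6, 11.4 and 11.8 CPM in control libraries a to c. The groups did not overlap, and the 3 controls lay within 0.4 CPM of each other. Its estimated log2 difference was 0.34 ± 0.11 (SE; unadjusted p = 0.00804, edgeR adjusted p = 0.181), with a 95% interval of 0.11 to 0.57. Without knockdown library c it was 0.40 (edgeR adjusted p = 0.0486), and without knockdown library a it was 0.35 (edgeR adjusted p = 0.224).

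PDGFB (ENSG00000100311.16, chr22:39223359-39244751, minus strand), the ligand of both receptors, was nearly absent. It had 26, 27 and 25 counts in knockdown libraries a to c, and 25, 23 and 36 in control libraries a to c. All 6 libraries lay between 0.741 and 0.991 CPM. The log2 fold change was 0.05 ± 0.33 (SE; edgeR adjusted p = 0.964), and the 95% interval of -0.67 to 0.77 was wide, so a difference smaller than this was not detectable at this depth.

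Of the receptors, PDGFRA (ENSG00000134853.11, chr4:54229097-54298247, plus strand) did not separate the groups. It had 3.98, 4.79 and 4.15 CPM in knockdown libraries a to c, and 3.13, 4.51 and 4.18 CPM in control libraries a to c. Control library a was the lowest, and the other 5 were mixed between groups. Its estimated log2 difference was 0.13 ± 0.18 (SE; edgeR adjusted p = 0.790), with a 95% interval of -0.26 to 0.52, and it was -0.0015 without control library a. The protein-coding gene AC058822.1 overlaps PDGFRA on the same strand and has no row under this name. How reads shared by both were counted is not known. Of the 10 listed primitive endoderm markers, GATA6 and SOX17 were low, with 5 to 24 and 0 to 4 counts per library. Of the 6 markers tested, all knockdown libraries lay above the controls in 2 and below them in 0 (9.55% and 9.37% of all genes tested). The summed level of the 10 primitive endoderm markers was 462 to 541 CPM in knockdown and 459 to 478 CPM in control libraries, most of it from FN1, LAMA1 and COL4A1, and the part of such cells in the PDGFRA values was not tested. Fewer cells of a type and less RNA per cell cannot be told apart in these bulk libraries.

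PDGFRB (ENSG00000113721.13, chr5:150113837-150155872, minus strand), known from fibroblasts and the mural cells of vessels, had the largest estimate after PDGFC but few counts. It had 49, 44 and 43 counts in knockdown libraries a to c, and 19, 33 and 15 in control libraries a to c. This corresponds to 1.73, 1.32 and 1.70 CPM against 0.668, 1.06 and 0.413 CPM. Every knockdown library lay above every control library, though control library b came close to knockdown library b and the Poisson 95% intervals of their counts overlapped (31.97 to 59.07 and 22.72 to 46.34). The log2 fold change was 1.15 ± 0.37 (SE; unadjusted p = 0.00877, edgeR adjusted p = 0.188), with a 95% interval of 0.35 to 1.95. It was 1.08 without knockdown library a (edgeR adjusted p = 0.250), and with no filter on low counts the edgeR adjusted p was 0.0483. The summed level of the 12 fibroblast and feeder cell markers was 103 to 115 CPM in knockdown and 107 to 120 CPM in control libraries. Most of it came from the collagen genes COL1A2 (1535 to 2581 counts per library) and COL1A1 (569 to 741), while LUM had 0 or 1 count, DCN 1 to 11 and COL3A1 0 to 9. Of the 7 markers tested, 4 had estimates above 0 and 3 below (-0.57 to 0.94), and 0 passed by edgeR. All knockdown libraries lay above the controls in 2 of the 7, POSTN and TAGLN, and below them in 0 (9.55% and 9.37% of all genes tested). Of the 7, 3 had an unadjusted p under 0.05 by edgeR (42.9%, against 14.3% of all genes tested). COL1A2, 1 of these 3, had an estimate of -0.20 (unadjusted p = 0.0292 by edgeR). The part of such cells in the PDGFRB values was not tested.

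**Figure D3:**
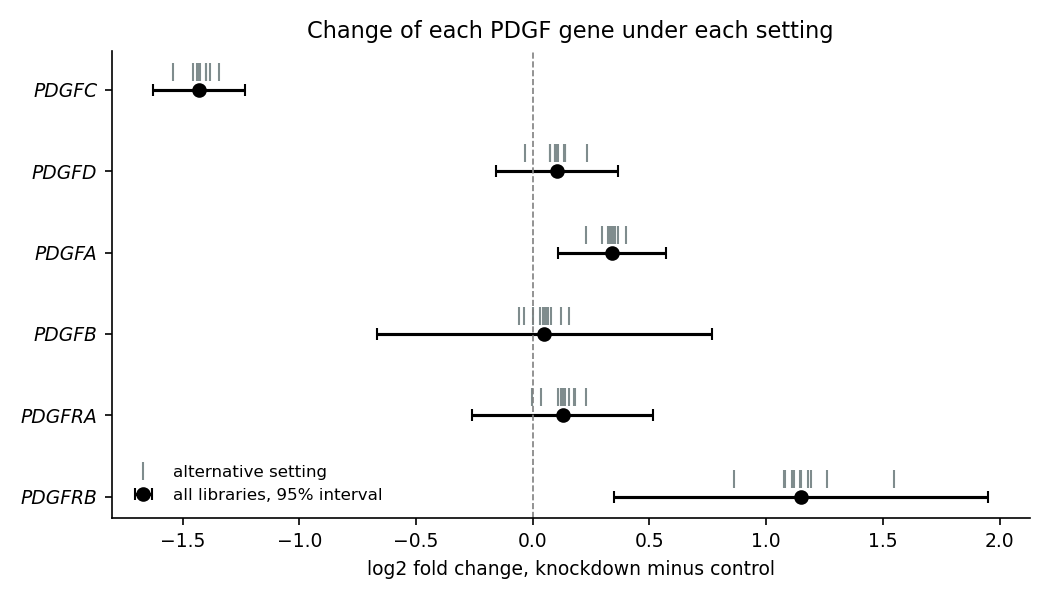
Log2 fold change (horizontal axis, knockdown minus control) of the 6 PDGF genes. Points are the fit of all 6 libraries with 95% intervals, and grey ticks are the alternative settings. All ticks of PDGFC lie between -1.54 and -1.34, those of PDGFA and PDGFRB lie above 0, and those of PDGFB, PDGFD and PDGFRA lie on both sides of 0.

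RefSeq promoter windows (GRCh38.p14) were available for 4 of the 6 members, PDGFA, PDGFD, PDGFRA and PDGFRB, and not for PDGFC and PDGFB. The 250 bases before the start are shown for PDGFA and PDGFRB, the members with every knockdown library above the controls, so that the sequence upstream of each can be compared. Capitals mark the GC box, GGGCGG, and the box named for its letters, CCAAT, on either strand. PDGFA has 4 starts in that table, and the one nearest the GENCODE gene start was taken. Both are written 5′ to 3′ on the gene's minus strand.
PDGFA, chr7:520227-520476: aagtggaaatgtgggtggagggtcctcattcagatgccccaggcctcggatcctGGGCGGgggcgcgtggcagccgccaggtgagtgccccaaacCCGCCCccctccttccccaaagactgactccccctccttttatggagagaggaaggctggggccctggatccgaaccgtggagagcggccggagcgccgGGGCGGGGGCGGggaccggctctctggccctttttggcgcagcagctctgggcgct
PDGFRB, chr5:150155846-150156095: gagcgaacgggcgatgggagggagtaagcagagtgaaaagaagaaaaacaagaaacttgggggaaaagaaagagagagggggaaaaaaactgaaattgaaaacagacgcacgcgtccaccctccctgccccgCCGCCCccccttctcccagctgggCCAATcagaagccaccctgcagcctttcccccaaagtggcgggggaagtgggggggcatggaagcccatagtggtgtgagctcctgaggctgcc
The PDGFA window held 4 GC boxes, of which a pair lies next to each other, no CCAAT and 68.8% G and C. The PDGFRB window held 1 GC box and 1 CCAAT box, with 58.4% G and C, where the median of all 35116 windows was 58%. Of all windows of this length, 42.6% held GGGCGG, 32% held CCAAT and 10.7% held TATAAA on either strand. Neither printed window held TATAAA. Of the windows not printed, that of PDGFD held 1 GC box with 69.2% G and C. That of PDGFRA held 0 GC boxes with 46.8% G and C. No measurement of these promoters was made.

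For a view of levels between genes, CPM was divided by the exonic length of each gene. In control libraries PDGFC had 10.2 ± 0.441 CPM per kb (SD, n = 3), above all other members in every library. PDGFD had 3.68 ± 0.147, PDGFA 2.80 ± 0.0453, PDGFRA 0.405 ± 0.0740, PDGFB 0.231 ± 0.0333 and PDGFRB 0.100 ± 0.0459 CPM per kb. In the controls the libraries of neighbouring genes in this order did not overlap. In knockdown libraries PDGFC stood at 3.81 ± 0.486, PDGFD at 3.96 ± 0.691 and PDGFA at 3.54 ± 0.451 CPM per kb, and these 3 overlapped. PDGFB (0.241 ± 0.0241) and PDGFRB (0.222 ± 0.0321) overlapped as well, and PDGFRA stood above them at 0.443 ± 0.0439. With the length of the longest protein-coding transcript in place of all exons, PDGFA (5.05 ± 0.0817) stood above PDGFD (3.87 ± 0.155) in the controls. In knockdown libraries that length put PDGFA at 6.37 ± 0.812, PDGFC at 5.12 ± 0.652 and PDGFD at 4.17 ± 0.728 CPM per kb. There PDGFA no longer overlapped PDGFD, while PDGFC overlapped both. The order of these ligands thus depends on the length used.

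The mixture of ligand gene RNA differed in its main component, and protein was not measured here. PDGFC made up 61.6, 60.4 and 59.1% of the summed per-length level of the 4 ligands in control libraries a to c. In knockdown libraries a to c it made up 32.7, 31.0 and 35.1%. The mean was 60.4 ± 1.23% against 32.9 ± 2.09% (SD, n = 3), and 60.0% against 32.1% with the other length. The sum itself was 16.9 ± 0.512 CPM per kb in control and 11.6 ± 0.745 in knockdown libraries. These shares rest on the PDGFC values already given and are a description.

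**Figure D4:**
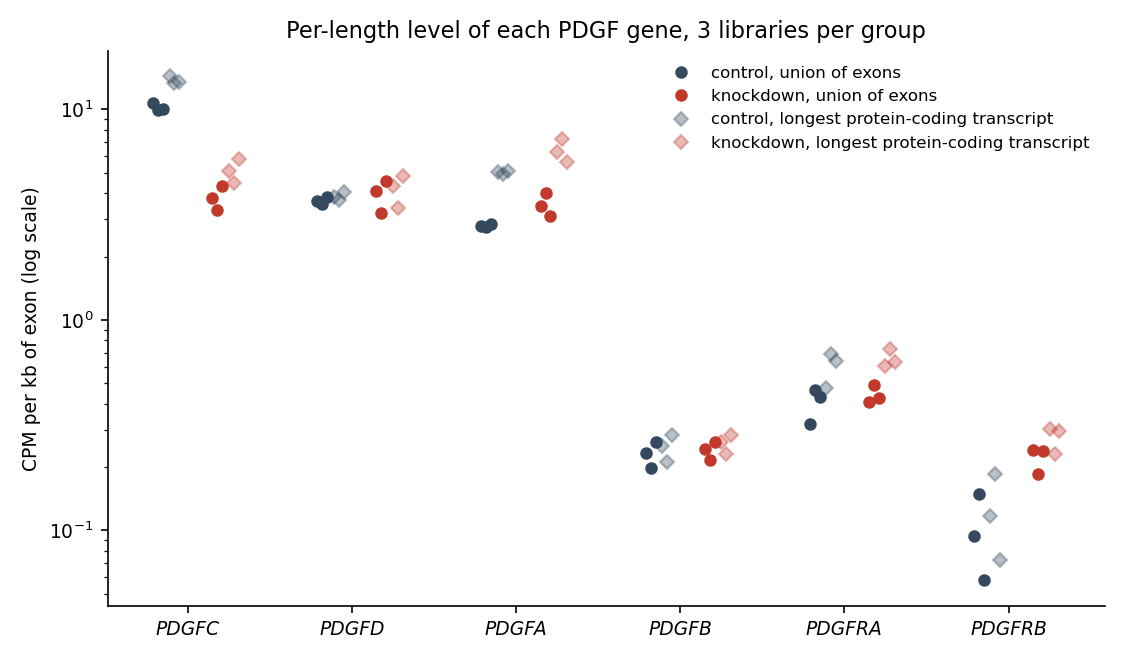
CPM per kb of exon (vertical log axis) of each PDGF gene in the 3 control and 3 knockdown libraries, with the union of exons (circles) or the longest protein-coding transcript (pale diamonds) as length. PDGFC is the highest in controls and lies among PDGFD and PDGFA in knockdown libraries, while PDGFB and both receptor genes stay below 1 CPM per kb.

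Genes near PDGFC were examined on both sides, among the 32793 of 53719 rows whose symbol could be placed on the genome. Rows without a position could lie nearer. RPPH1-3P, 15 kb upstream, had 1 count in all libraries together. GLRB, a glycine receptor subunit gene 104.7 kb upstream, had 2.15 ± 0.584 CPM in knockdown and 2.35 ± 0.207 CPM in control libraries (SD, n = 3), with a log2 fold change of -0.14 and an SE of 0.24 (edgeR adjusted p = 0.844). GRIA2, a glutamate receptor subunit gene 232.8 kb upstream, had 62, 13 and 24 counts in knockdown libraries a to c, against 18 to 30 in controls, so library a alone was high (edgeR adjusted p = 0.574). Downstream the nearest placed rows were FTH1P21, listed at 0, CTSO at 806.5 kb and TDO2 at 840 kb. CTSO had an estimate of -0.24 with an SE of 0.18 (edgeR adjusted p = 0.580), and TDO2 had 0.38 ± 0.48 (SE; edgeR adjusted p = 0.770). Of these 6 neighbours 4 had enough counts to be tested, and none of the 4 passed by edgeR. GENCODE release 29 also places an antisense gene and a pair of unclassified transcripts on the opposite strand of PDGFC. They have no row of their own under these names, and the strand setting of the counting was not given in the sources used here, so reads from them cannot be told apart from those of PDGFC.

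The 5 genes whose log2 CPM over the 6 libraries was most like that of PDGFC, of 15139 compared, were RP11-572M11.4, TRPC6, CD48, RP11-398H6.1 and DEFB107B. Their Pearson correlations with PDGFC were 0.999, 0.999, 0.998, 0.998 and 0.998 (n = 6 libraries). The points share the libraries and the group difference, so these values describe a common profile over 6 points and nothing more. TRPC6, a cation channel gene, had 862 ± 33.5 CPM in knockdown and 1248 ± 12.2 CPM in control libraries, which is -0.53 on the log2 scale. CD48, a surface protein of the SLAM family, had 105 ± 5.55 against 160 ± 3.005 CPM, a difference of -0.60. Each of the 5 differed by less on the log2 scale (-0.60 to -0.53) than PDGFC did. DEFB107B, a beta-defensin gene, has a near-identical copy, so its counts are uncertain.

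The genes around the PDGF pathway were read from 4 lists holding 102 genes, of which 96 were tested. Of these 96, 1 gene passed an adjusted p of 0.05 (1.04%, against 0.786% of all genes tested), and it was lower in knockdown. In 25 (26%, against 18.9% of all genes) all knockdown libraries lay on 1 side of all controls. The median log2 fold change of all tested genes was 0.02.

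Genes that process, bind or help to present PDGF ligands gave no call by edgeR in either direction (0 of 14 tested), with 7 at an unadjusted p under 0.05 (50%, against 14.3% of all genes tested) and a median log2 fold change of 0.07. DESeq2 called PCSK5 as lower and SLC9A3R1 as higher. By edgeR the same pair was called with the replicate block, with no low-count filter (with LRP1 as higher) and without knockdown library c (with SPARC as higher), and SLC9A3R1 alone with library size alone. The PDGF-C activating protease gene PLAT had 14.6 ± 1.83 CPM in knockdown and 14.2 ± 0.608 CPM in control libraries (SD, n = 3). PLAU had 1 count in knockdown library c, 1 in control library a and 0 in the other 4. ST14 had 13.7 ± 1.40 against 12.8 ± 0.859 CPM, and FURIN, a convertase gene, 49.3 ± 5.15 against 42.3 ± 3.25 CPM. These 4 are named for their roles. The 3 rows with the highest CPM were PCSK5, a convertase gene (238 ± 41.9 against 305 ± 20.9 CPM; edgeR adjusted p = 0.160), the endocytic receptor LRP1 (284 ± 35.2 against 240.0 ± 14.2; edgeR adjusted p = 0.240) and the PDGF-binding matrix protein SPARC (265 ± 24.2 against 234 ± 9.80; edgeR adjusted p = 0.307).

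The next list held VEGF ligands and the class III and V receptor kinases with their ligands, which include the nearest relatives of the PDGF family. It also held the co-receptor gene NRP2. Of 15 tested genes 1 was called as lower and 0 as higher by edgeR (0.649% and 0.137% of all genes tested). An unadjusted p under 0.05 by edgeR was found for 4 (26.7%, against 14.3% of all genes tested), and the median was 0.03. The called gene was NRP2, a co-receptor for VEGF-C and for class III semaphorins, so no VEGF ligand or receptor kinase of the list was called. It had 21.4, 23.1 and 22.4 CPM in knockdown libraries a to c, and 34.7, 27.9 and 29.2 CPM in control libraries a to c. The groups did not overlap, and control library a was the highest. The log2 fold change was -0.46 ± 0.09 (SE; edgeR adjusted p = 0.0414). NRP2 passed in 7 of 13 alternatives, with adjusted p from 0.000121 to 0.190, and it was not called with library size alone or in 5 of the 6 fits without 1 library. KIT (63.1 against 62.0 CPM), IL34 (88.6 against 93.5) and FLT1 (44.4 against 39.0) had the most CPM of this list and did not pass.

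Genes of signal transduction below the PDGF receptors were centred near 0. Of 40 tested, 0 passed by edgeR, 11 had an unadjusted p under 0.05 (27.5%, against 14.3% of all genes tested), and 20 lay below and 20 above 0, with a median of -0.0016. All knockdown libraries lay below the controls in 8 of the 40 and above them in 3 (9.37% and 9.55% of all genes tested). DESeq2 called 1, the ubiquitin ligase gene CBLB (lower), which edgeR also called with the replicate block and, as 1 of 2 genes, with no low-count filter. Without knockdown library c edgeR called 6, all lower, among them CBLB, GAB1, RASA1, FYN and BRAF, which are named after their values were seen. Among the genes of highest CPM were PTPN11, which encodes the phosphatase SHP2, and the ubiquitin ligase gene CBL, with log2 fold changes of 0.06 and 0.11.

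Immediate-early and feedback genes of growth factor signalling likewise gave no call by edgeR (0 of 27 tested, median 0.03). Of the 27, 6 had an unadjusted p under 0.05 by edgeR (22.2%, against 14.3% of all genes tested). DESeq2 called KLF6, a zinc finger factor gene, as lower. By edgeR KLF6 was called as lower among genes with a mean count of at least 50, with the gene span trend removed (with JUN as lower), with no low-count filter (with JUN as lower and DUSP5 as higher) and without knockdown library c (with DUSP5 as higher). MCL1, SPRED1 and SPRED2 had the most CPM, with log2 fold changes of -0.03, -0.14 and 0.05. FOS had 22.4 ± 2.16 CPM in knockdown and 20.5 ± 2.36 CPM in control libraries, and EGR1 0.915 ± 0.247 against 0.897 ± 0.240 (SD, n = 3), both named as the best known members.

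**Figure D5:**
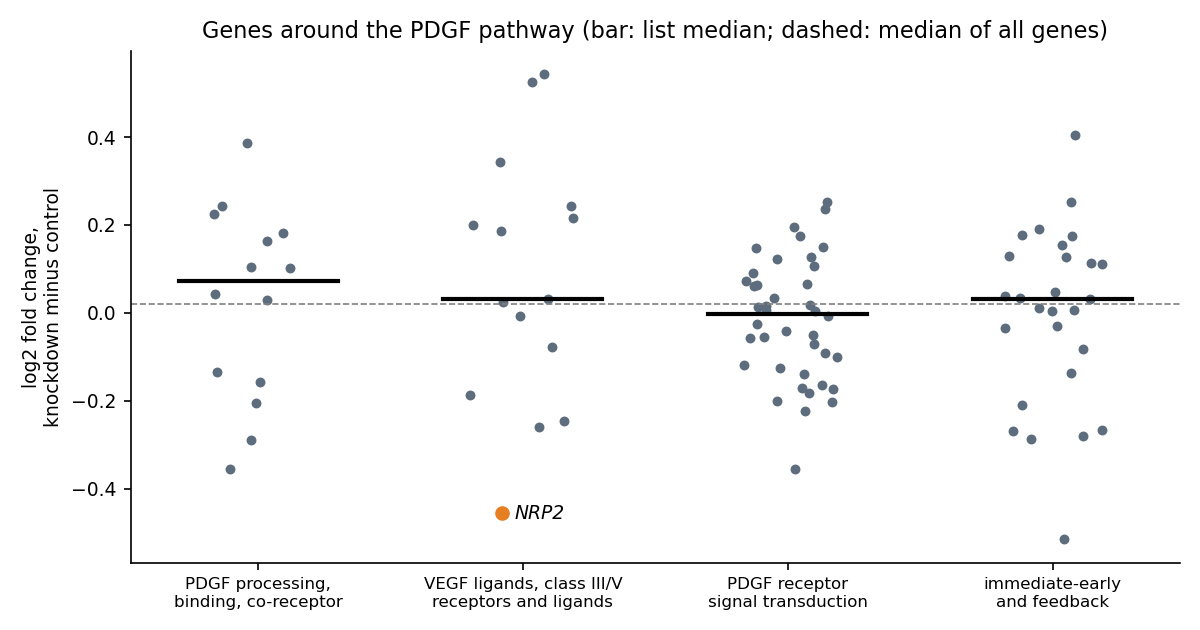
Log2 fold change (vertical axis, knockdown minus control) of the tested genes of 4 lists around the PDGF pathway. Points are genes, black bars are list medians, the dashed line is the median of all tested genes, and the orange point is NRP2 at -0.46, the 1 gene past an adjusted p of 0.05.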

How the data were processed

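The deposited values are whole, unscaled counts, with a row for each gene symbol and a column for each library. The submitters' processing notes name Trimmomatic 0.39, STAR 2.7.8a, featureCounts, Subread 2.14.2 and hg38. The annotation, the strand setting and the handling of reads at overlapping genes or several places are not given in the sources used here, and their effect on rows such as SOX2 or PDGFC was not tested.

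The members, gene lists and tests were chosen with earlier results of these data known. The fit covered the whole table with edgeR 4.0.16 (R 4.3.3): filterByExpr at its defaults (19721 genes, 99.9% of counts), TMM scaling, and the quasi-likelihood test with the group as only term, two-sided, adjusted by the Benjamini-Hochberg method at 0.05. The SE is the log2 fold change over the root of F. Exonic lengths and positions came from GENCODE 29 (GRCh38), matched for 32793 of 53719 symbols. Likeness used log2(CPM + 0.5) among genes with a mean count of at least 50. Named were the members, list genes past the threshold (at most 6 per list), the 3 list genes of highest CPM and the 5 most alike. The 3 nearest matched rows on each side of PDGFC were named as well. Alternatives were other scalings, filters, DESeq2 1.42.0, a replicate block, removal of the gene span trend and leaving out each library. The procedure was tested on simulated data with 200 genes changed by a log2 fold change of 0.5, 1 or 1.43. It recovered 101, 136 and 164 of the 200, with 9, 14 and 10 false calls. With no change simulated, it made 0 false calls. Many changes of 0.5 were thus missed. Intervals of counts are exact Poisson intervals and cover counting error only. Some genes of the signal transduction list that this rule or an alternative picked are not reported here.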

Additional observations from a re-analysis of the deposited data

How the results depend on the processing

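PDGFC kept its direction and moved by less than the spread between replicates in all 13 alternatives. The number of genes past the threshold, 155, was less settled: it was 1064 with no low-count filter, 501 by DESeq2, 393 with the replicate block, 236 with the gene span trend removed, and from 26 (without control library a) to 1309 (without knockdown library c) when a library was left out. The share of higher genes among calls was 17.4%. It was 35.4% with library size alone (56 of 158), 37.9% with no low-count filter, 3.85% when control library a was left out and 0% when b or c was. The cause was not tested. PDGFRB passed with no low-count filter (1.15), and ran from 0.86 (without control library c) to 1.55 (without control library b). When each library was left out, the log2 fold change of PDGFA ran from 0.23 to 0.40, past the threshold at 0.40. That of PDGFB ran from -0.059 (without control library b; -0.04 without knockdown library c) to 0.16, of PDGFD from -0.0316 (without knockdown library c) to 0.23, and of PDGFRA from -0.0015 (without control library a) to 0.23. List medians ran from -0.0156 to 0.10 for ligand processing, -0.0473 to 0.0373 for immediate-early genes, -0.0132 to 0.14 for naive and 0.13 to 0.38 for mesoderm markers. The pluripotency median was -0.0044 with the gene span trend removed. Between libraries with the same letter, deviations from group means correlated at -0.0109, 0.14 and -0.0104 for a, b and c. Libraries of different letters were not compared in this way, so whether the letters mark pairs was not tested. The block changed no call among the PDGF genes, and in the gene lists it added PCSK5, SLC9A3R1 and CBLB and removed none.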
